A study of Mus musculus with 19 samples.

Results

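Oxidative phosphorylation is carried out in the inner mitochondrial membrane by 5 protein complexes. Complexes I, III and IV pass electrons from NADH to oxygen and pump protons, and complex V, the ATP synthase, uses the proton gradient to make ATP. Most of their subunits are encoded in the nucleus and a few core subunits in mitochondrial DNA. Dendritic cells are known to shift between oxidative metabolism and glycolysis when they are activated, and type 1 conventional dendritic cells (DC1) are the subset that presents antigen to CD8 T cells.

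The nuclear genes of complexes I, III, IV and V were described here across sorted mouse DC1. Members were the genes with a single annotated symbol that starts with Ndufa, Ndufb, Ndufc, Ndufs or Ndufv and a digit, with Cox and a digit in the range 4 to 8, with Uqcr or with Atp5. This rule uses names only. It found 80 of 23156 genes in either of 2 array tables, 73 of them in both. Complex I had 33 members, complex III 8, complex IV 20 (Ndufa4, now placed in that complex, and its paralog Ndufa4l2 included) and complex V 17. The remaining 2, Atp5c1-ps and Uqcrh-ps1, are pseudogenes on the spleen array. Each gene was read from its probe set with the highest mean. A gene was tested where at least 2 arrays reached the median of its table, which 70 of 76 spleen members and 74 of 77 lymph node members did. Below that level were Atp5c1-ps, Cox7b2, Cox8c, Ndufa4l2, Ndufs5 and Uqcrh-ps1 in spleen, and Cox7b2, Cox8b and Ndufa4l2 in lymph node. Ndufb2, Cox6c and Uqcr10 were among the genes named in the lymph node table only, and Cox7c in the spleen table only.

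Affymetrix arrays measured RNA of DC1 from mice on a C57Bl/6j background. Cells were labelled positive or negative for Irf8VENUS, a fluorescent reporter of the transcription factor gene Irf8, and the labels do not say whether the negative cells came from mice that carry it. Batf3-/- mice lack another transcription factor gene that DC1 use. In the spleen, 8 arrays from female mice held Batf3-/- Irf8VENUS+ DC1 (n = 3), WT Irf8VENUS+ DC1 (n = 3) and WT Irf8VENUS- DC1 (n = 2). In skin-draining lymph nodes (inguinal, cervical and brachial; SDLN), 11 arrays held migratory Batf3-/- Irf8VENUS+ DC1 (n = 3), migratory WT Irf8VENUS+ DC1 (n = 2), resident Batf3-/- Irf8VENUS+ DC1 (n = 3) and resident WT Irf8VENUS+ DC1 (n = 3). Migratory cells, which arrive from the skin, were gated as MHCIIhi CD11cint and resident cells as MHCIIint CD11chi. Ages are not given in the sources used here. Whether the arrays of each group stand for separate mice is not stated in the labels, so p-values measure only the spread between these arrays, which may be technical. The labels give the spleen sort as CD172a+ and the lymph node sort as CD172-, and that difference could not be settled here. They give neither the extent of the Batf3 deletion nor the sex of the lymph node mice. In sorted cells measured in bulk, fewer cells of a type and less RNA per cell cannot be told apart.

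The values were RMA values, a method that usually brings arrays to a common distribution. Batf3 averaged 6.24 (log2 RMA value) in spleen Batf3-/- cells and 9.93 in spleen WT Irf8VENUS+ cells, 6.02 in migratory Batf3-/- cells and 9.19 in migratory WT cells, and 5.74 in resident Batf3-/- cells and 8.38 in resident WT cells. Among DC1 markers, Irf8 averaged from 10.7 to 12.6 over the 7 groups, and the migratory marker Ccr7 averaged 12.4 and 11.7 in migratory Batf3-/- and WT cells and 9.96 and 8.35 in resident Batf3-/- and WT cells. Xcr1, a DC1 marker, averaged 6.12 and 7.96 in migratory Batf3-/- and WT cells and 9.79 and 11.2 in resident Batf3-/- and WT cells. The lymph node arrays differed in their spread. The SD of all log2 values on an array was 2.16, 2.15 and 2.07 in migratory Batf3-/- cells and 1.96 and 2.03 in migratory WT cells, and it ran from 2.16 to 2.23 on the 6 resident arrays. Migratory Batf3-/- replicate 3 had the lowest mean correlation with its group among the lymph node arrays. It was 0.949, against 0.967 and 0.968 for replicates 1 and 2. The 2 migratory WT arrays correlated with each other at 0.958, and on the spleen arrays the same mean ran from 0.933 to 0.966. Counts of members, and of some of the other gene lists, that use migratory Batf3-/- replicate 3 are also given without it.

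Members are bright genes. In lymph node, 65 of the 74 tested members lay among the brightest 25% of all tested genes, and in spleen 53 of 70. Lymph node group means of tested members averaged from 5.88 (Ndufs1, an iron-sulphur subunit) to 11.5 (Ndufc2) in complex I, from 8.51 (Uqcr11) to 12.0 (Uqcrh) in complex III, from 4.64 (Cox8c) to 12.2 (Cox6b1) in complex IV and from 8.19 (Atp5g2) to 11.3 (Atp5j2) in complex V. Probes differ in how strongly they hybridise, so no order among genes is read from these levels.

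The promoters of 64 of the 80 members were given by RefSeq (GRCm38.p6), each from 250 bases before to 50 after an annotated start. They were searched on both strands for letters that the literature ties to respiratory genes. The 10-base palindrome bound by NRF1 was in 5 of the 64 (7.81%) and in 1.07% of the promoters of all 27025 genes. Its core GCATGCGC, which the palindrome contains, was in 9 (14.1%) and in 3.05% of all genes. CCGGAAG, the core bound by ETS factors, was in 15 (23.4%) and in 9.93% of all genes. AAGATGGCG, bound by YY1, was in 7 (10.9%) and in 1.64% of all genes. Any of them was in 26 members (40.6%) and in 13.6% of all genes. A match is a run of letters, not a measured site.

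The stretches below are shown because, in WT migratory against resident cells, genes with the same motif were called in opposite directions. Atp5k (higher) and Cox6a1 (lower) changed sign under 1 alternative each, as given below, and neither was called in that comparison in Batf3-/- cells. Atp5k and Cox6a1 hold the NRF1 palindrome and lie on chromosome 5, Uqcr11 and Uqcrh hold the ETS core and lie on chromosomes 10 and 4. Each stretch is 90 bases long, 5′ to 3′ along the gene, with the motif in capitals. The motif begins at -50, -162, -66 and -10 from the annotated start in the order printed, and the stretches of Cox6a1 and Uqcr11 stop before the start. Elsewhere in their windows Atp5k and Cox6a1 also hold an ETS core and Uqcr11 an NRF1 core. All 4 genes are on the minus strand of GRCm38.p6, at chr5:108434400-108434489, chr5:115349071-115349160, chr10:80406840-80406929 and chr4:116075071-116075160 in the order printed.
Atp5k: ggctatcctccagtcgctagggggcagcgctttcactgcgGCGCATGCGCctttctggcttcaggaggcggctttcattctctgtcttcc
Cox6a1: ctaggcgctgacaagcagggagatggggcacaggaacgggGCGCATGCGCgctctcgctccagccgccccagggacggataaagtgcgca
Uqcr11: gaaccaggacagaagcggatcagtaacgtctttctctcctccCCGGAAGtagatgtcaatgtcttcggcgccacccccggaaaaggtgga
Uqcrh: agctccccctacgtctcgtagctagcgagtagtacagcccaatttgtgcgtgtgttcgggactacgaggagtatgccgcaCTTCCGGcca

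In WT lymph node cells, migratory DC1 were set against resident DC1. Members called lower in migratory cells included subunits of the catalytic F1 part of the ATP synthase and the 2 core proteins of complex III. Several complex I subunits were also called lower. Small subunits were called in both directions, and in either direction members were called in a smaller share than all tested genes. By limma's moderated test with Benjamini-Hochberg adjustment over all 11931 tested genes at 0.05, 20 of 74 members (27.0%) were called, 5 higher and 15 lower. Of all tested genes 49.2% were called, 16.0% higher and 33.2% lower. The median difference of the members was -0.08 (log2), beside -0.16 for all tested genes and -0.43 for the brightest 25%. By complex, 2 of 33 complex I members were called higher and 5 lower, 1 and 3 of 8 in complex III, 1 and 2 of 16 in complex IV, and 1 and 5 of 17 in complex V.

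The split between higher and lower depended on how array spread was treated. With arrays scaled to the same SD, 15 members were called higher and 8 lower (47.7% of all genes were called), and the members' median was 0.32. With quantile normalization again, 13 were called higher and 8 lower (46.9% of all genes). With array spread as a term in the fit, 0 were called higher and 14 lower, the median was -0.68, and 10.6% of all genes were called. Of the 15 lower calls, 8 were shared with the scaled arrays and 1 (Uqcr11) with the fit that held array spread. The migratory WT arrays had the 2 smallest SDs of the 11, so array spread and the group cannot be fully told apart in this comparison.

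**Figure D1:**
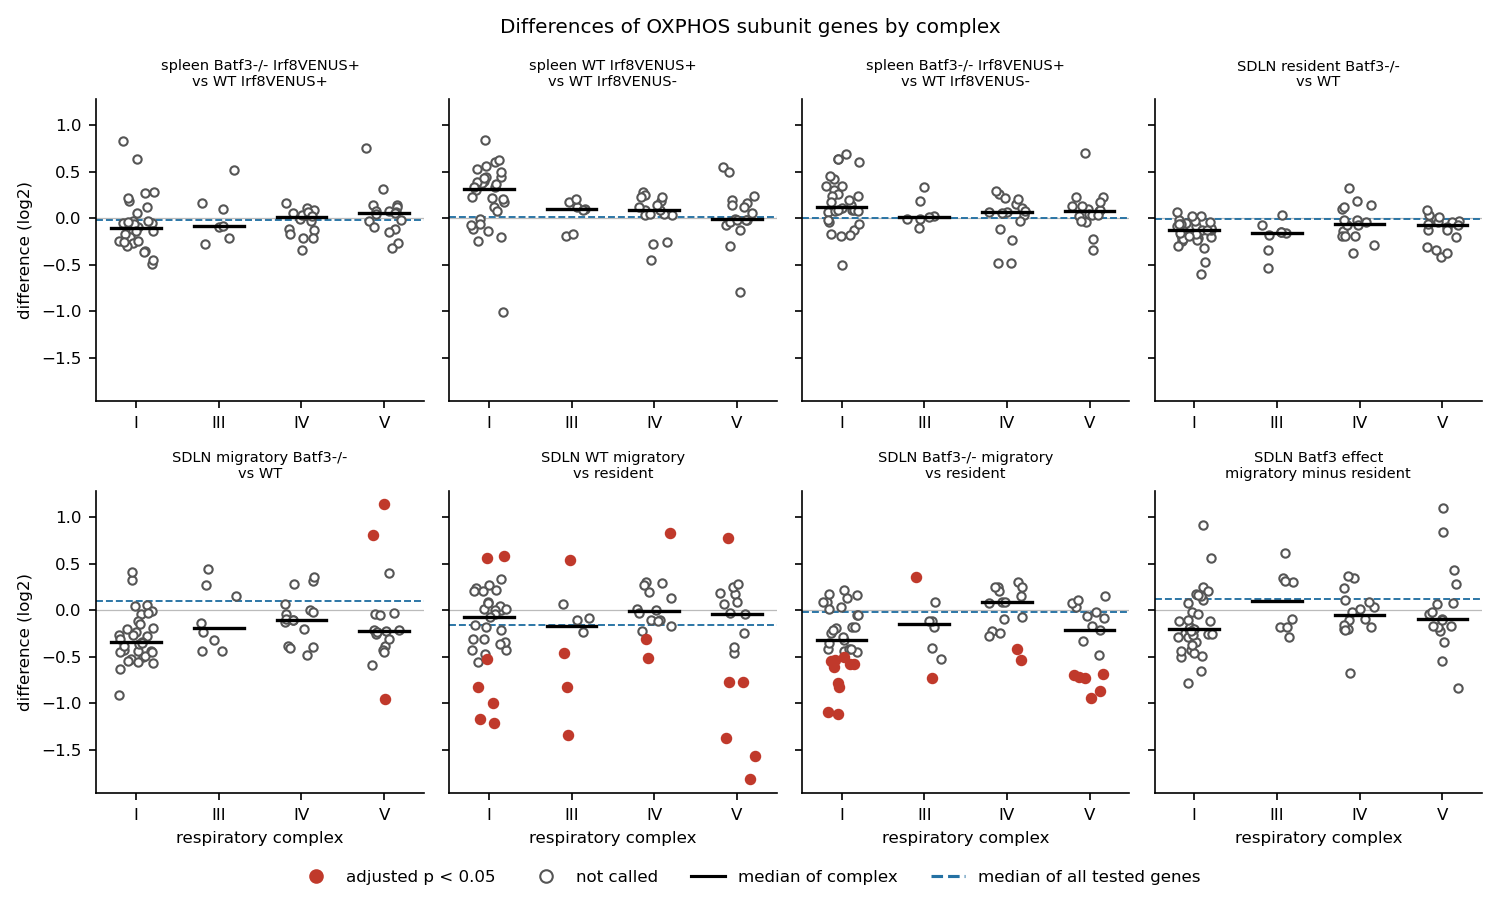
Log2 differences of the tested members (points) by respiratory complex in each of the 8 comparisons, first-named group minus the second, with the median of each complex (black bars) and of all tested genes (dashed line). Red points are called by limma at an adjusted p under 0.05; they appear in 3 of the 5 lymph node panels and in none of the 3 spleen panels.

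The F1 part of the ATP synthase held 3 of the members with large differences, which were not called when array spread was a term. Its alpha and beta subunits form the ring that makes ATP, and gamma, delta and epsilon form the central stalk that turns in it. Atp5b (beta) had 8.94 and 9.51 in migratory WT cells, against 10.79, 10.85 and 10.72 in resident WT cells. The difference was -1.56 ± 0.20 (log2, SE; 2.96-fold lower; adjusted p = 6.6e-05), and the groups did not overlap.

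Atp5a1 (alpha) had 8.08 and 8.41 in migratory WT cells, against 9.62, 9.61 and 9.64 in resident WT cells, 2.60-fold lower. Atp5d (delta) had 6.75 and 7.37 in migratory WT cells, against 8.79, 8.87 and 8.97 in resident WT cells, 3.52-fold lower. Atp5c1 (gamma) averaged 10.1 ± 0.1 in migratory WT cells and 10.2 ± 0.1 in resident WT cells (SD, n = 2 and 3), and Atp5e (epsilon) averaged 9.31 ± 0.47 and 9.13 ± 0.22 in the same groups, and neither was called. In all, 3 of 5 F1 members were called lower, and the groups overlapped for the other 2. With array spread as a term the differences were -0.20 for Atp5b, -0.33 for Atp5a1 and -0.07 for Atp5d (adjusted p = 0.664, 0.578 and 0.923), and with arrays scaled to the same SD they were -1.16, -1.08 and -1.63, all called.

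Outside F1, the peripheral stalk member Atp5o differed by -0.77 ± 0.16 and the c-ring gene Atp5g1 by -0.78 ± 0.20, both lower in migratory cells. Atp5k, which encodes the small membrane subunit e, went the other way. It had 9.22 and 9.17 in migratory WT cells, against 8.65, 8.40 and 8.22 in resident WT cells, a difference of 0.77 ± 0.24 (adjusted p = 0.0193). This call was lost without any 1 of 4 arrays, and the value was -0.36 (adjusted p = 0.68) with array spread as a term and 1.11 (adjusted p = 0.00403) with scaled arrays. Of the 8 membrane members 1 was called higher and 1 lower.

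In complex III, the 2 core proteins that face the matrix were both lower. Uqcrc1 had 7.84 and 8.14 in migratory WT cells, against 9.01, 9.40 and 9.58 in resident WT cells, 2.53-fold lower. Uqcrc2 differed by -0.46 ± 0.16, and Uqcr11, a small subunit, by -0.83 ± 0.26. Leaving out any 1 resident WT array lost the call for Uqcrc2, and leaving out resident WT replicate 1 or 3 that for Uqcr11. Over the alternatives the value of Uqcrc2 ran from -0.62 to -0.06. A second Uqcr11 probe set gave a smaller difference, -0.36. Uqcrh, the hinge protein that sits near cytochrome c1, was higher, with 12.35 and 12.17 in migratory WT cells, against 11.75, 11.78 and 11.65 in resident WT cells (0.53 ± 0.10, adjusted p = 0.000937). None of these 4 genes had overlapping groups. Uqcrc1's value turned to 0.20 with array spread as a term, where it was not called.

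In complex I, 6 tested members belong to the conserved core that carries out electron transfer. Ndufs8, an iron-sulphur subunit, had 7.50 and 7.59 in migratory WT cells, against 8.59, 8.49 and 8.54 in resident WT cells, 1.99-fold lower. Ndufv1, which holds the NADH-binding site, was 2.25-fold lower (-1.17 ± 0.23). These were the only 2 of 6 core members called. Among 27 accessory subunits, Ndufa9 was 2.31-fold lower, with 7.99 and 7.69 in migratory WT cells, against 9.06, 9.04 and 9.04 in resident WT cells. Ndufs5 (-0.83 ± 0.27) and Ndufa8 (-0.52 ± 0.18) were also lower, and Ndufa7 (0.56 ± 0.18) and Ndufa3 (0.58 ± 0.22) were higher. Leaving out any 1 resident WT array lost the call for Ndufa8, and leaving out resident WT replicate 2 or 3 that for Ndufs5. Over the alternatives the value of Ndufa8 ran from -0.60 to -0.09. The call for Ndufa3 was lost without any 1 of the 5 arrays and that for Ndufa7 without any 1 of 3. With array spread as a term the values were -0.47 for Ndufa3 and 0.71 for Ndufa7, neither called, and Ndufa9 was at -0.22 (adjusted p = 0.812).

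In complex IV, cytochrome c oxidase, 3 of 16 tested members were called. Cox4i2, the paralog of Cox4i1 known for its response to low oxygen in lung, had 6.23 and 6.12 in migratory WT cells, against 5.45, 5.43 and 5.17 in resident WT cells, a difference of 0.82 ± 0.14. It was among the dimmer members. Cox6b2 (-0.51 ± 0.18), a form known from testis, and Cox6a1 (-0.31 ± 0.12) were lower. Leaving out resident WT replicate 1 or 2 lost the call for Cox6b2. The call for Cox6a1 was lost without any 1 of 4 arrays, and its value was 0.29, not called, with arrays scaled to the same SD.

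**Figure D2:**
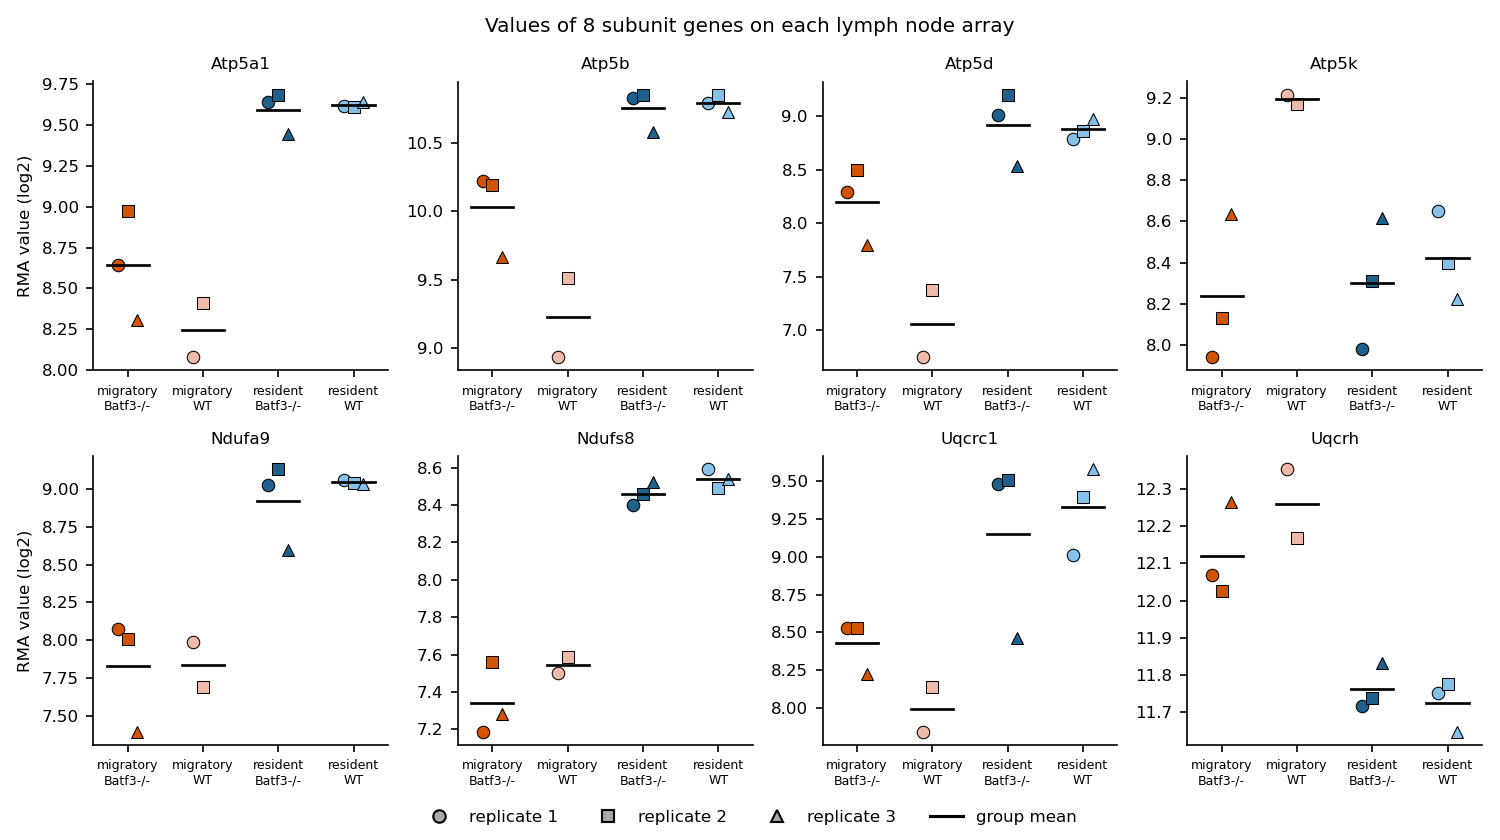
Log2 RMA values of 8 members on each of the 11 lymph node arrays, with the symbol shape giving the replicate number and a bar the group mean; each panel has its own axis, which does not start at 0. Atp5a1, Ndufa9 and Ndufs8 sit below every resident array in both genotypes, Uqcrh sits above, and Atp5b, Atp5d and Atp5k differ between the migratory Batf3-/- and WT arrays.

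Leaving out arrays 1 at a time gave 9 to 12 members lower and 2 to 5 higher. The lowest counts were 9 lower without migratory WT replicate 1 and 2 higher without resident WT replicate 2 or 3, and 3 were higher without either migratory WT array. Of the 20 called members, 10 were called without each array in turn: Atp5a1, Atp5b, Atp5d, Atp5o, Cox4i2, Ndufa9, Ndufs8, Ndufv1, Uqcrc1 and Uqcrh. Within each of the 2 replicate numbers shared by the groups, all 15 lower and all 5 higher members kept their sign. They had been called on these same arrays, so this is not separate support.

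The same comparison in Batf3-/- cells used other arrays. Here 1 member was called higher and 19 lower (27.0% of 74), while 36.6% of all tested genes were called, 14.1% higher and 22.6% lower. The median of the members was -0.20, beside -0.02 for all genes and -0.12 for the brightest 25%. Complex I had 10 of 33 members lower, complex III 1 lower and 1 higher of 8, complex IV 2 lower of 16 and complex V 6 lower of 17.

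Ndufs8 had the smallest adjusted p of the members (8e-05). It had 7.19, 7.56 and 7.28 in migratory Batf3-/- cells, against 8.40, 8.46 and 8.52 in resident Batf3-/- cells, 2.17-fold lower. Ndufa9 had 8.07, 8.01 and 7.39 in migratory Batf3-/- cells, against 9.03, 9.13 and 8.60 in resident Batf3-/- cells, 2.14-fold lower. In both genes the groups did not overlap, and replicate 3 was the lowest of both groups for Ndufa9.

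Of the other complex I calls, Ndufb2 (-0.82 ± 0.23), Ndufa5 (-0.78 ± 0.25), Ndufs7 (-0.58 ± 0.17, a core subunit next to the quinone site), Ndufv1 (-0.61 ± 0.20), Ndufb5, Ndufb6, Ndufb11 and Ndufc2 were lower. Ndufb6, Ndufb11 and Uqcrc1 were called although their groups overlapped on single arrays. In complex IV, Cox6b2 (-0.53 ± 0.16) and Cox7b (-0.42 ± 0.13) were lower, and Uqcrh was the one higher member, with 12.07, 12.03 and 12.26 in migratory Batf3-/- cells, against 11.72, 11.74 and 11.83 in resident Batf3-/- cells (0.36 ± 0.09).

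In complex V, Atp5a1 had 8.65, 8.98 and 8.31 in migratory Batf3-/- cells, against 9.64, 9.69 and 9.44 in resident Batf3-/- cells, 1.93-fold lower. Atp5b (-0.73 ± 0.18) and Atp5d (-0.72 ± 0.24) completed the same 3 of 5 F1 members as in WT cells. Atp5o fell by 0.70 on the log2 scale, Atp5g1 by 0.87 and Atp5g3 by 0.68. Atp5k averaged 8.24 ± 0.36 in migratory Batf3-/- cells and 8.30 ± 0.32 in resident Batf3-/- cells (SD, n = 3 each) and was not called.

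Between the genotypes, 10 members were called lower in both comparisons: Atp5a1, Atp5b, Atp5d, Atp5g1, Atp5o, Cox6b2, Ndufa9, Ndufs8, Ndufv1 and Uqcrc1. They were 52.6% of the Batf3-/- lower calls and 66.7% of the WT lower calls. Of these, 4 lost their Batf3-/- call in some of the 6 fits that left out 1 array: Uqcrc1 in 5, Ndufv1 in 4, Atp5d in 3 and Cox6b2 in 2. Over all tested genes, 2307 were lower in both, which is 85.6% of the Batf3-/- lower calls and 58.2% of the WT lower calls. Uqcrh was the one member higher in both. The 2 comparisons share no array. Of the 24 members lower in either, 22 had a RefSeq promoter and 8 of these held one of the motifs above, and of the 5 higher in either, 4 had one and 2 held a motif. Atp5b and Atp5d held none of the 4 in these windows.

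Migratory Batf3-/- replicate 3 weighed on this comparison. Without it, 34 members were lower and 1 higher, and 37.1% of all genes were called. The added lower members were mostly complex I and small subunits, among them Ndufb8 (-0.65), Ndufs6 (-0.62) and Uqcr11 (-0.71). Without migratory Batf3-/- replicate 1 the lower count was 10, without replicate 2 it was 9, and without resident Batf3-/- replicate 2 it was 11. Over all genes 2467 of 11907, 2496 of 11874 and 2082 of 11901 were lower, in that order. With array spread as a term 32 were lower and 0 higher (33.4% of all genes were called), of which 15 were among the 19. With arrays scaled to the same SD 11 were lower and 2 higher (35.9% of all genes). Atp5a1, Atp5g1, Atp5g3, Atp5o, Ndufa9 and Ndufs8 were called lower under all 18 alternatives run for this comparison.

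The median over the 74 members on an array was 8.78, 8.97 and 9.34 in migratory Batf3-/- cells and 9.45 and 9.22 in migratory WT cells, against 9.33, 9.50 and 9.44 in resident Batf3-/- cells and 9.49, 9.64 and 9.59 in resident WT cells. Migratory Batf3-/- replicates 1 and 2 had the lowest medians of the 11 arrays, and replicate 3 lay among the other groups.

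**Figure D3:**
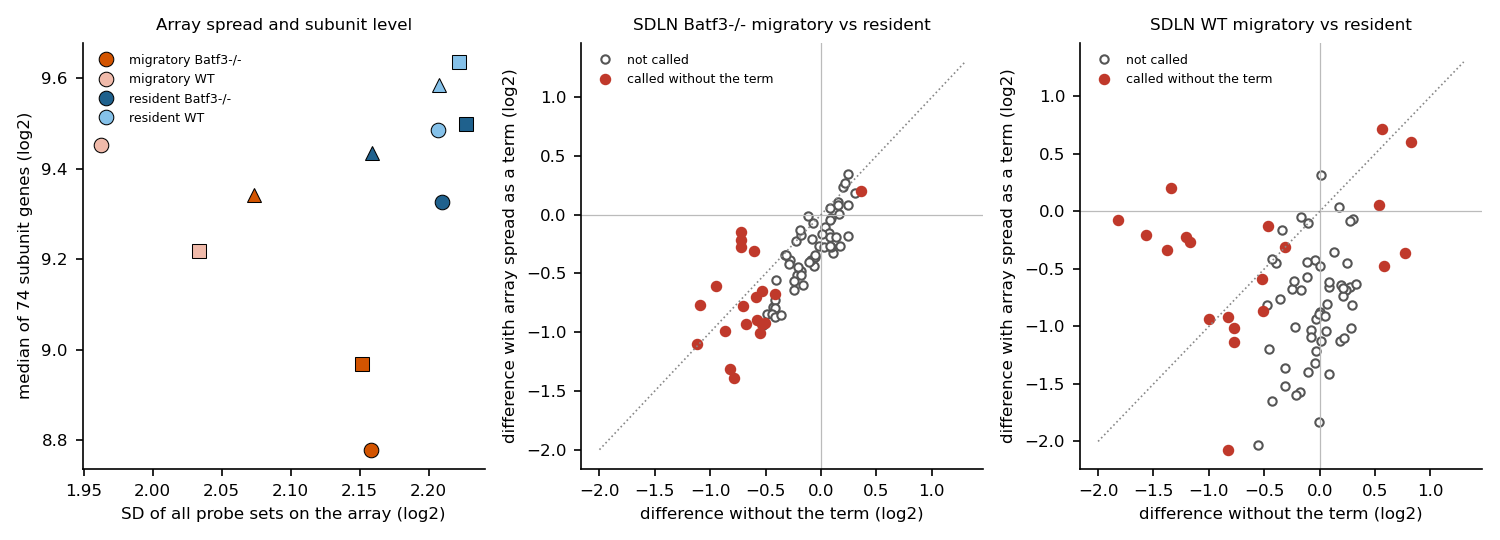
Left, median log2 value of the 74 tested members on each lymph node array against the SD of all values on that array (symbol shape as replicate number: circle 1, square 2, triangle 3). Middle and right, each member's migratory minus resident difference without (x axis) and with (y axis) array spread as a term, in Batf3-/- and WT cells; points in Batf3-/- cells lie near the dotted line of equality, and in WT cells they do not.

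Markers of other cells were read on the same arrays. Over the 4 measured of 5 B cell markers, the summed log2 value ran from 20.2 to 24.3 in migratory Batf3-/- cells and from 25.1 to 26.1 in migratory WT cells, and from 19.3 to 20.8 in resident Batf3-/- cells and from 18.0 to 20.5 in resident WT cells. Over the 4 measured of 6 T cell markers it ran from 24.8 to 28.4 in migratory Batf3-/- cells and from 26.5 to 31.1 in migratory WT cells, and from 24.1 to 28.8 and from 23.3 to 24.8 in resident Batf3-/- and WT cells. Over all 7 markers of type 2 conventional dendritic cells it ran from 33.6 to 36.9 in migratory Batf3-/- cells and from 36.3 to 38.4 in migratory WT cells, and from 43.6 to 45.7 and from 40.1 to 49.0 in resident Batf3-/- and WT cells. The 5 measured of 6 plasmacytoid dendritic cell markers include Cox6a2, which is itself a member. Their sum ran from 33.1 to 33.6 and from 32.4 to 33.1 in migratory Batf3-/- and WT cells. In resident Batf3-/- and WT cells it ran from 37.4 to 38.1 and from 36.2 to 38.5. Both lists were thus lower on every migratory array than on every resident array. Over the 8 DC1 markers the sum ran from 60.56 to 60.58 in migratory Batf3-/- cells and from 62.2 to 64.8 in migratory WT cells. In resident Batf3-/- and WT cells it ran from 78.6 to 80.5 and from 82.1 to 83.3, so this list was lower too. Irf4, of the type 2 list, went against its sum. It averaged 7.80 and 6.75 in migratory and 5.52 and 5.88 in resident Batf3-/- and WT cells. The 4 measured of 6 macrophage and monocyte markers ran from 18.4 to 20.2 over the 11 arrays, and the 1 measured of 3 erythroid markers lay below the filter level of 4.82 on all of them. None of these markers was at 0, which RMA values do not reach. Their part in the members' differences was not tested.

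Loss of Batf3 in migratory DC1 was tested between 3 Batf3-/- and 2 WT arrays. 3 of 74 members (4.05%) were called, all in complex V, while 9.41% of all tested genes were called, 7.13% higher and 2.28% lower. The members' median was -0.23, beside 0.10 for all genes and 0.29 for the brightest 25%, and 59 of 74 members had a negative value.

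Atp5d had 8.29, 8.50 and 7.79 in migratory Batf3-/- cells, against 6.75 and 7.37 in migratory WT cells. It was 2.19-fold higher (1.13 ± 0.26, adjusted p = 0.0240), and the groups did not overlap. Atp5b had 10.22, 10.19 and 9.67 in migratory Batf3-/- cells, against 8.94 and 9.51 in migratory WT cells, 1.74-fold higher (0.80 ± 0.20, adjusted p = 0.0304). Replicate 3 lay nearest to the WT arrays in both genes.

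Atp5k was lower, with 7.94, 8.13 and 8.64 in migratory Batf3-/- cells, against 9.22 and 9.17 in migratory WT cells (-0.96 ± 0.24, adjusted p = 0.0307). Cox4i2, next in order of p, had 5.64, 5.70 and 5.74 in migratory Batf3-/- cells, against 6.23 and 6.12 in migratory WT cells, and missed the threshold (-0.48 ± 0.14, adjusted p = 0.0543). All complex I members missed it, 29 of 33 with a negative value and a median of -0.35. In this comparison 5 members lay wholly above and 17 wholly below the WT arrays, while over all genes 24.2% lay above and 12.4% below.

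These counts depended on single arrays. Without migratory Batf3-/- replicate 3, 3 members were higher (Atp5a1, Atp5b and Atp5d) and 32 lower, 60 of 74 had a negative value, and 30.3% of all genes were called. No member was called without migratory Batf3-/- replicate 1 (150 genes were higher and 77 lower of 11907) or replicate 2 (146 and 88 of 11874). Fits without a migratory WT array keep 1 array in that group, so their counts are left out here. With only these 2 groups in the fit no member was called (0.0611% of all genes). With the replicate number as a block 2 were higher and 8 lower, while 20.7% of all genes were called. With arrays scaled to the same SD 1 was higher and 12 lower (10.6% of all genes). With array spread as a term none was called, the members' median was 0.17, and Atp5b's value was -0.02, while 0.31% of all genes were called.

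In resident DC1, Batf3-/- cells were set against WT cells with 3 arrays each. No member was called by limma, and 6 of 74 had an unadjusted p under 0.05, all lower (8.11% of members, 9.61% of all genes). Of all tested genes 1.84% were called. Differences were small and mostly negative, with 62 of 74 members below 0 and a median of -0.12, beside -0.01 for all genes and -0.04 for the brightest 25%. Groups did not overlap for 15 lower members and 1 higher member, while 11.2% of all genes were lower and 8.61% higher in this way.

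Cox7a2l, which takes part in joining complexes III and IV into supercomplexes, had the smallest p. It had 10.26, 10.24 and 10.31 in resident Batf3-/- cells, against 10.69, 10.68 and 10.54 in resident WT cells (-0.37 ± 0.10, adjusted p = 0.117). Ndufs4 (-0.47 ± 0.15, adjusted p = 0.212) and Ndufs5 (-0.59 ± 0.24, adjusted p = 0.399) also had groups that did not overlap, and Uqcr11 (-0.54 ± 0.23, adjusted p = 0.474) had groups that did. Second probe sets gave -0.28 for Uqcr11 and -0.28 for Cox7a2l. With array spread as a term 3 were called lower (Atp5md, Uqcrb and Cox7a2l; 3.6% of all genes were called), and with arrays weighted by quality 7 were (8.22% of all genes).

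Whether the effect of Batf3 loss differed between migratory and resident cells was tested as the difference of the 2 differences. No member was called by limma, 7 had an unadjusted p under 0.05 (9.46%, beside 19.2% of all genes), and 1.24% of all genes were called. The smallest p-values belonged to Cox4i2 (-0.67 ± 0.19, adjusted p = 0.103), Atp5b (0.84 ± 0.27, adjusted p = 0.132), Atp5d (1.09 ± 0.35, adjusted p = 0.133) and Atp5k (-0.84 ± 0.32, adjusted p = 0.192). With the replicate number as a block 2 were called higher and 0 lower (4.55% of all genes). Without migratory Batf3-/- replicate 3, 2 were called higher (Atp5b and Atp5d) and 5 lower (Ndufa5, Ndufa6, Ndufb11, Atp5k and Cox4i2), beside 14.6% of all genes.

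Several subunits exist as paralogs that replace each other by tissue. The c-ring of the ATP synthase is built from 3 genes that encode the same mature protein. Atp5g1 was lower in migratory cells of both genotypes and Atp5g3 was lower in Batf3-/- cells (-0.46 ± 0.19, adjusted p = 0.0614, in WT cells). Atp5g2 was not called in any comparison and differed by 0.15 ± 0.16 in Batf3-/- and 0.18 ± 0.18 in WT cells. A second Atp5g1 probe set gave -0.76 in Batf3-/- and -0.65 in WT cells.

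Of the complex IV pairs, Cox4i1 was not called in lymph node (0.31 ± 0.15 in Batf3-/- and 0.30 ± 0.17 in WT cells, migratory minus resident), while Cox4i2 was called in WT cells. Cox6a1 and Cox6b2 were called and their partners Cox6a2 and Cox6b1 were not. Cox7a1, known from muscle and brown fat, Cox7a2 and Cox7a2l were not called, and neither were Cox8a and Cox8c. Cox8b and Ndufa4l2 lay below the filter in lymph node, where Ndufa4 itself averaged from 10.1 to 10.5 over the 4 groups and was not called.

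**Figure D4:**
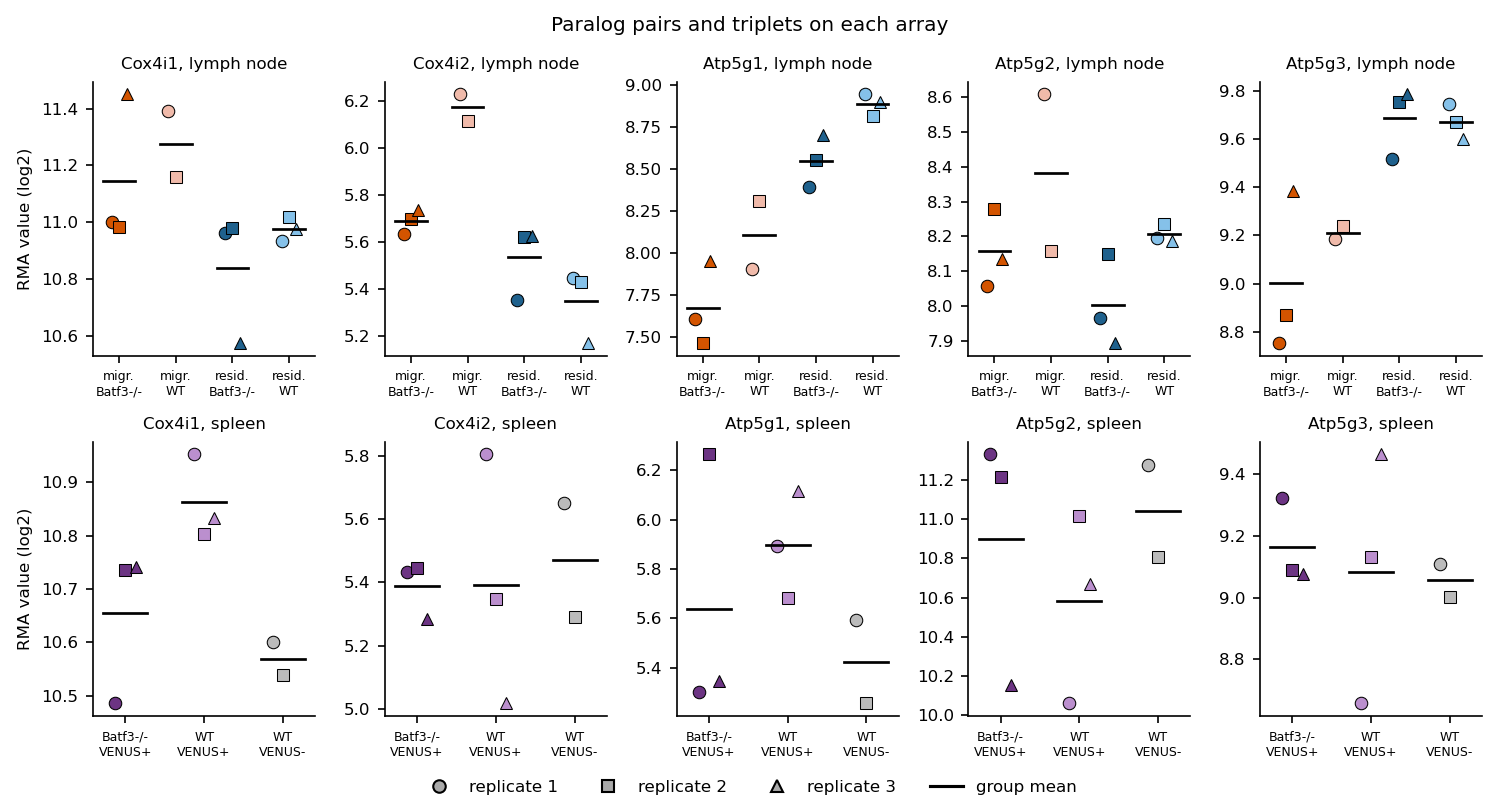
Log2 RMA values of the Cox4i pair and the 3 c-ring genes on each lymph node array (top) and spleen array (bottom), with a bar at the group mean and the symbol shape giving the replicate number; each panel has its own axis, which does not start at 0. Atp5g1 and Atp5g3 are lower on the migratory arrays and Atp5g2 is not, and in spleen none of the 5 genes was called.

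The neighbouring steps of mitochondrial metabolism were read from lists of other genes, with the same fits. Their shares stand beside those of all tested genes given above (16.0% higher and 33.2% lower in WT cells, 14.1% and 22.6% in Batf3-/- cells). In WT cells 12 of 16 genes of the TCA cycle and pyruvate entry were lower in migratory cells and none higher. Citrate synthase (Cs) averaged 7.46 ± 0.34 in migratory WT cells and 9.30 ± 0.06 in resident WT cells (SD, n = 2 and 3), and Idh3a differed by -1.83 ± 0.28 and Fh1, fumarase, by -1.56 ± 0.22. In Batf3-/- cells 8 of 16 were lower, with Fh1 at -1.84 ± 0.20. The list medians, -0.97 in WT and -0.52 in Batf3-/- cells, lay below those of the members.

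Of 8 genes for complex II and electron carriers, 6 were lower in WT cells, among them Etfb (-1.76 ± 0.22), which passes electrons from fat oxidation, and Cycs, cytochrome c (-1.26 ± 0.18). In Batf3-/- cells 4 were lower and 1 higher, with Cycs at -1.21 ± 0.16. Of 14 glycolysis genes, 11 were lower and 1 higher in WT cells and 9 were lower in Batf3-/- cells. Ldha, lactate dehydrogenase, averaged 7.39 ± 0.26 in migratory WT cells and 9.90 ± 0.11 in resident WT cells, and it differed by -1.95 ± 0.15 in Batf3-/- cells.

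Assembly factors went both ways, with 8 of 46 higher and 15 lower in WT cells and 5 higher and 10 lower in Batf3-/- cells. Sdhaf1, which assembles complex II, was higher by 2.56 ± 0.18 in WT and 2.40 ± 0.16 in Batf3-/- cells, and Cmc2, a complex IV factor, by 2.53 ± 0.18 and 1.85 ± 0.16. Ndufaf6, a complex I factor, was lower in Batf3-/- migratory cells (-2.36 ± 0.17). Among 16 regulators of mitochondrial genes, 2 were higher and 8 lower in WT cells and 2 higher and 5 lower in Batf3-/- cells, and Pprc1, a PGC-1 family coactivator, was lower in both (-1.22 ± 0.16 and -1.33 ± 0.14 in WT and Batf3-/- cells). In resident cells, Ppargc1b, of the same family, was higher in Batf3-/- than WT cells (0.84 ± 0.15, adjusted p = 0.0104).

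The 6 carriers and channels had 1 higher and 3 lower in WT cells and 1 higher and 2 lower in Batf3-/- cells. The ADP/ATP carriers split, with Slc25a5 lower (-0.88 ± 0.15 in WT and -0.67 ± 0.13 in Batf3-/- cells) and Slc25a4 higher (0.49 ± 0.13 and 0.51 ± 0.11). Mitochondrial ribosomal proteins had 8 of 77 higher and 18 lower in WT and 6 higher and 21 lower in Batf3-/- cells. Cytosolic ribosomal proteins had 8 of 66 higher and 15 lower in WT and 2 and 14 in Batf3-/- cells, and the proteasome 3 of 39 higher and 16 lower in WT and 6 and 2 in Batf3-/- cells.

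Of the subunits encoded in mitochondrial DNA, the lymph node table held 2. COX2, a complex IV core subunit, averaged 11.9 ± 0.1 in migratory WT cells and 11.4 ± 0.2 in resident WT cells, and ND3, of complex I, averaged 9.59 ± 0.48 and 8.47 ± 0.50 in the same groups. Both were called higher (0.58 ± 0.22, adjusted p = 0.0417, and 1.12 ± 0.42, adjusted p = 0.0436), and neither was called in Batf3-/- cells (0.05 ± 0.19 and -0.28 ± 0.38). The difference of these differences was not called for either (adjusted p = 0.338 and 0.209). In WT cells COX2 and ND3 turned to -0.69 and -1.14 with array spread as a term, where neither was called, and were called higher with scaled arrays (1.21 and 1.49).

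The counts of these lists also depended on array spread. With it as a term in WT cells, when 6.15% of all genes were higher and 4.43% lower, 0 genes of the TCA cycle list, 1 of complex II and electron carriers (Cycs), 2 of glycolysis (Ldha among them), 10 of the mitochondrial ribosome and 0 of the cytosolic ribosome were lower. Cs was then at -0.57, Idh3a at -0.29 and Fh1 at -1.43, none called, while Sdhaf1 (2.11) and Cmc2 (2.43) were called higher. With arrays scaled to the same SD, 10 TCA cycle genes, 5 of complex II and electron carriers and 10 of glycolysis were lower in WT cells, and 39 of 66 cytosolic ribosomal proteins were higher, beside 17.4% of all genes higher and 30.4% lower.

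In Batf3-/- cells, array spread as a term gave 6 TCA cycle genes, 4 of complex II and electron carriers, 7 of glycolysis and 26 mitochondrial ribosomal proteins lower, beside 17.2% of all genes. Scaled arrays gave 7, 3, 7 and 18 lower in the same lists, beside 21.3%. Without migratory Batf3-/- replicate 3 the same lists had 8, 5, 7 and 29 lower, beside 21.6%, and Fh1 was at -2.02, Cycs at -1.34 and Ldha at -1.89. COX2 was at -0.07 and ND3 at -0.56 without it, neither called. The proteasome had 4 higher and 4 lower without it.

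In spleen, none of the 70 tested members was called by limma in any of the 3 comparisons. Between Batf3-/- and WT Irf8VENUS+ cells 0.738% of 12875 tested genes were called, between WT Irf8VENUS+ and WT Irf8VENUS- cells 0.0233%, and between Batf3-/- Irf8VENUS+ and WT Irf8VENUS- cells 0.559%. Unadjusted p-values under 0.05 were held by 1, 5 and 3 members in that order of comparisons (1.43%, 7.14% and 4.29%), beside 10.4%, 7.91% and 9.25% of all genes. None of the alternatives run for spleen called a member.

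Between Batf3-/- and WT Irf8VENUS+ cells the members' median was -0.04, and that of all genes -0.02. Ndufa12, an accessory complex I subunit, had the smallest p, with 9.66, 9.92 and 10.14 in Batf3-/- cells, against 10.46, 10.34 and 10.41 in WT Irf8VENUS+ cells (-0.49 ± 0.15, adjusted p = 0.271). The groups did not overlap for it. Ndufs4 (-0.44 ± 0.19), Atp5j2 (-0.32 ± 0.14) and Uqcrh (0.52 ± 0.27) followed, with groups that overlapped.

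Set against WT Irf8VENUS- cells, WT Irf8VENUS+ cells had a members' median of 0.12 (0.02 for all genes), and complex I a median of 0.32 with 22 of 30 members positive. Groups did not overlap for 19 higher members and 1 lower member, while 14.6% and 10.3% of all genes did so. Ndufs1 had 6.50, 6.60 and 6.46 in WT Irf8VENUS+ cells, against 6.02 and 5.46 in WT Irf8VENUS- cells (0.83 ± 0.24, adjusted p = 0.504). Ndufb7 (0.53 ± 0.16), Ndufa12 (0.56 ± 0.18) and Ndufv2 (0.43 ± 0.18) were the next 3.

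In Batf3-/- Irf8VENUS+ against WT Irf8VENUS- cells, the median was 0.08 (0.00 for all genes). Ndufc2 had 10.78, 10.89 and 10.40 in Batf3-/- cells, against 10.09 and 10.24 in WT Irf8VENUS- cells (0.61 ± 0.18, adjusted p = 0.275). Ndufc1 (0.64 ± 0.19), Ndufs1 (0.69 ± 0.24) and Ndufs4 (-0.50 ± 0.23) had the next smallest p-values. Both comparisons with WT Irf8VENUS- cells share those 2 arrays.

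Single spleen arrays carried the widest values. WT Irf8VENUS+ replicate 1 was low for Ndufa11 (6.63, against 9.05 and 9.44 on the other two), Atp5h (7.84, against 10.12 and 10.43) and Ndufa9 (6.53, against 8.69 and 8.59). Replicate 3 of the Batf3-/- group, sorted on CD24 alone like replicate 3 of WT Irf8VENUS+, was low for Atp5a1 (9.04, against 10.12 and 9.91), Atp5b (9.42, against 10.53 and 10.42) and Atp5g2 (10.15, against 11.33 and 11.22). The sort gate was a term in the spleen fit, and fitted differences with WT Irf8VENUS- cells therefore differ from those of plain means. All 10 mitochondrial DNA subunits on the spleen arrays were tested and none was called.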

How the data were processed

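The analysis used the processed array values that were deposited for 19 samples. The authors made both tables with RMA (version not stated), as the submitters' processing notes list. The deposited spleen values are linear intensities, and their log2 was used. The deposited lymph node values are already log2. Without a background measure for each probe, precision rests on how many arrays there are. Names of probe sets came from GEO's platform table, updated to RefSeq symbols by gene identifier, and those with several symbols (10 spleen and 6 lymph node ones matching the rule) were left out, while probes can still pick up near-identical pseudogenes. Each table was fitted whole with limma 3.58.1 under R 4.3.3, using a mean-variance trend and, in spleen, a term for the sort gate, with Benjamini-Hochberg adjustment over all tested genes at 0.05. The filter level was a log2 value of 5.04 in spleen and 4.82 in lymph node. The 2 tables were tested separately.

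Members, lists and motifs were chosen with earlier results of these data known. Named genes were the called members (up to 8 in each direction, with others named from the counts), the 4 smallest p-values where fewer than 4 were called, the brightest and dimmest member of each complex, the paralogs and up to 3 called genes of each list, and genes named beside a count were chosen after their values were seen. Lymph node replicate numbers come from a shared code in the titles. Same-numbered Batf3-/- migratory and resident arrays had correlated deviations from their group means (0.416, 0.210 and 0.479), so they may be pairs. Replicates 1 and 2 also correlated across numbers (0.218 and 0.184), so pairing by number was not settled. Resident Batf3-/- and WT arrays of the same number had -0.031, 0.214 and -0.020. The migratory WT group has no replicate 3. The main lymph node fit held no term for the replicate number, which was a block in an alternative. The limma step was tested on simulated data with independent noise for each gene. This covered Batf3-/- against WT Irf8VENUS+ cells in spleen and Batf3-/- against WT resident cells. Unequal array spread and pairing were not simulated. Alternatives covered the filter, normalization, array spread, weights, probe sets, samples and blocks.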

Additional observations from a re-analysis of the deposited data

Results flagged for a closer look

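Atp5k (ATP synthase subunit e) had opposite signs for Batf3 loss in the 2 tissues, with every array of each group on one side. The difference was 0.069 (log2) between Batf3-/- and WT Irf8VENUS+ cells in spleen and -0.96 between migratory Batf3-/- and migratory WT cells in lymph node. The tissues come from separate tables, so the difference between them was not tested, and the spleen value was not called. In spleen the groups nearly met, with the lowest Batf3-/- value at 11.244 and the highest WT Irf8VENUS+ value at 11.241. The lymph node call was lost without any 1 of 4 of the 5 arrays.

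Cox7a2l had opposite signs between the genotypes for migratory against resident cells, again with no overlap between groups. The difference was 0.20 in Batf3-/- cells and -0.17 in WT cells, and neither was called. The test of the difference itself gave 0.37 ± 0.15 (limma, adjusted p = 0.217), which missed the threshold. On a second Cox7a2l probe set the values were 0.18 in Batf3-/- cells and -0.03, close to 0, in WT cells.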

How the results depend on the processing

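None of the spleen alternatives called a member. Counts are given here as higher and lower members. For migratory against resident WT cells (5 and 15), quantile normalization again gave 13 and 8, arrays scaled to the same SD 15 and 8, array spread as a term 0 and 14, and only the groups compared 9 higher; leaving out an array gave 2 to 5 and 9 to 12. Over all genes, only the groups compared gave 1958 and 4255 of 11382. Leaving out a resident WT array gave 1397 to 1585 and 3295 to 3605 genes. Atp5k (-0.36), Ndufa3 (-0.47) and Uqcrc1 (0.20) reversed with array spread as a term and Cox6a1 (0.29) with scaled arrays. For Batf3-/- migratory against resident cells (1 and 19), scaled arrays gave 2 and 11, array spread 0 and 32, array weights 2 and 35, and only the groups compared 9 lower; leaving out an array gave 1 to 1 and 9 to 34. Over all genes, array weights gave 2169 and 3181 of 11931 here, and only the groups compared 1416 and 2359 of 11391. Leaving out an array gave 1363 to 1821 and 2082 to 2668 genes. The replicate block gave 1 and 21 members here, beside 1790 and 2874 genes. In WT cells it gave 5 and 14 members, beside 2106 and 4258 genes. For migratory Batf3-/- against WT cells (2 and 1), the stricter filter gave 3 lower, quantile normalization 1 and 5, scaled arrays 1 and 12, array spread 0 and 0 (Atp5b reversed, -0.022), array weights 15 lower, only the groups compared 0 and 0, and the replicate block 2 and 8; leaving out an array gave 0 to 3 and 0 to 32. Over all genes, the stricter filter gave 954 and 154 of 6656, quantile normalization 660 and 518 of 11833, and array weights 1794 and 500 of 11931. For resident Batf3-/- against WT cells (0 and 0), array spread gave 3 and array weights 7 lower, and leaving out an array or the replicate block gave 0. Over all genes, leaving out an array gave 41 to 95 and 53 to 84 there, and the replicate block 145 and 135. For the difference of differences (0 and 0), array weights gave 2 and 1 and the replicate block 2 and 0; leaving out an array gave 0 to 2 and 0 to 5. Over all genes, array weights gave 878 and 232 of 11931 for the difference. The replicate block changed no other count of members called. Leaving out all arrays of replicate number 3, chosen after seeing the data, gave 31 lower in Batf3-/- migratory against resident cells, 4 and 36 in migratory and 1 lower in resident Batf3-/- against WT cells, and 1 and 2 for the difference. Over all 11664 genes then tested, the counts were 1628 and 2621, 2725 and 983, 124 and 97, and 619 and 156, in that order. The cause of these changes was not tested. Having 2 migratory WT arrays, migratory Batf3-/- replicate 3, the unequal array spread and the absence of a background measure per probe limit the lymph node results.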
